A study of Mus musculus with 6 samples.

Results

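The genes described here are the Wnt ligands Wnt2b, Wnt4, Wnt5a, Wnt5b and Wnt11, the R-spondins Rspo1, Rspo2 and Rspo3, and the Wnt target genes Axin2 and Lgr5, measured in stomach fibroblasts of mice with and without induced gastric cancer. They were chosen by gene symbol, and 9 of the 10 listed symbols were among the 14228 genes of the count table. Rspo2 was not analysed here. No member passed the test of cancer-associated against normal fibroblasts over all genes, in which differences are set against the spread between libraries. The largest differences were in Rspo3 and Rspo1, which averaged higher in cancer-associated fibroblasts, and in Wnt2b and Wnt4, which averaged lower.

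Cancer-associated fibroblasts (CAF, n = 3 libraries) came from iLgr5;GLI2A triple-transgenic mice of 8 weeks that had been given tamoxifen in corn oil by gavage for 5 days, then doxycycline in chow for 3 weeks and, in the first 3 days of it, also in sucrose drinking water. Normal fibroblasts (normal, n = 3 libraries) came from mice of the same triple-transgenic strain and age that had received corn oil, with neither tamoxifen nor doxycycline. In this model the drugs switch on an active form of the Hedgehog factor GLI2 in Lgr5-expressing cells, so drug and cancer effects cannot be told apart, and Lgr5, a member here, also defines the cells in which the transgene is induced; whether a modified Lgr5 allele adds to its counts is not given in the labels. Stomach cells were sorted as live and podoplanin-positive after removal of CD31-, CD45- and EpCAM-positive cells, and a library held cells of 1 or 2 mice. Values of single libraries are given in the order of library numbers 1, 2 and 3. RNA was counted by MARS-seq, which reads the 3′ ends of polyadenylated transcripts.

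Wnt ligands are lipid-modified secreted proteins that bind Frizzled receptors with the co-receptors Lrp5 and Lrp6 and stabilise beta-catenin, or act without beta-catenin through receptors such as Ror2. R-spondins bind Lgr4, Lgr5 and Lgr6 and keep the ubiquitin ligases Rnf43 and Znrf3 from removing Frizzled, which makes cells more sensitive to Wnt. In the mouse stomach, R-spondin 3 from stromal cells beneath the glands is known to sustain the stem and progenitor cells of the gland base. Axin2 is a scaffold of the beta-catenin destruction complex that beta-catenin itself induces, and it is widely used as a readout of the pathway.

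Total counts were 644522 to 6422568 in the CAF libraries and 768420 to 3259644 in the normal libraries. CAF library 1 was about as shallow as normal libraries 2 and 3, so a count of 0 in it allows up to 4.39 CPM, the level of 3 counts (CPM are counts scaled to a common library total after correction for composition). All 18 fibroblast identity genes were present and took 1.66%, 4.16% and 5.05% of counts in CAF libraries 1, 2 and 3, against 0.73%, 1.35% and 3.05% in normal libraries 1, 2 and 3. Genes of gastric gland cells (29 of 34 listed) took 0.623% to 0.881% in CAF libraries and 20.0%, 16.3% and 4.19% in normal libraries 1, 2 and 3. Libraries also differed in base composition. CAF library 1 and normal libraries 1 and 3 favoured transcripts with GC-rich 3′ ends, and CAF libraries 2 and 3 and normal library 2 favoured GC-poor ones, at slopes of 0.50, 0.19 and 0.29 against -0.36, -0.40 and -0.22 log2 units per 10 percentage points of GC. In bulk libraries, fewer cells of a type and less RNA per cell cannot be told apart.

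**Figure D1:**
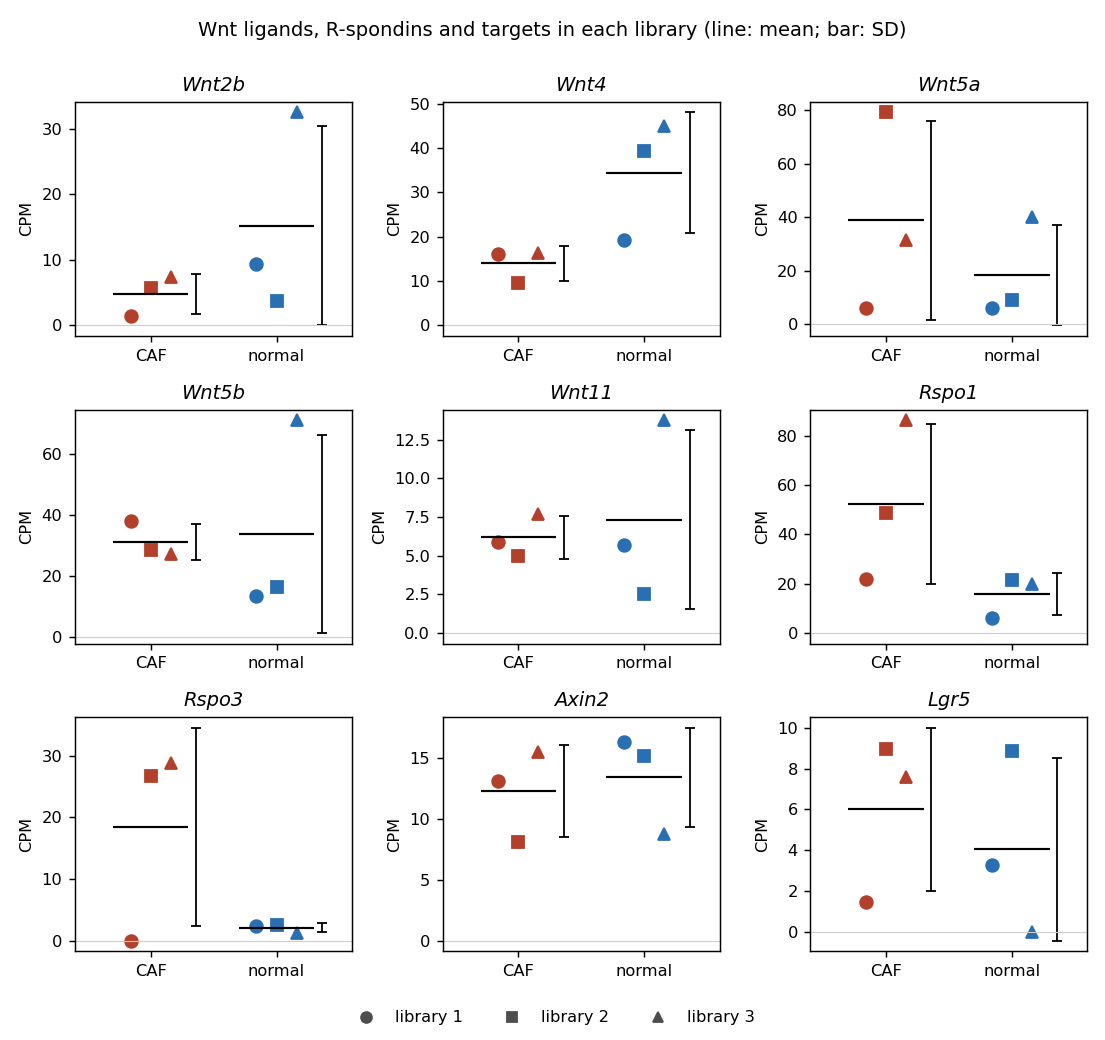
CPM of each of the 9 genes (vertical axes, linear) in the 3 CAF and 3 normal libraries; symbols mark library numbers, horizontal lines the group means and bars the SD. In Rspo1 and Wnt4 the 2 groups do not overlap, in Rspo3 CAF libraries 2 and 3 stand above all the others, and all 5 Wnt ligands have their highest normal value in normal library 3.

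Of the 9 genes, 8 passed the filter on low counts and were tested, and 0 were called, meaning an adjusted p under 0.05 over 10148 genes in the quasi-likelihood test of edgeR, from which all adjusted p-values and log2 ratios (CAF over normal) come unless another tool is named. The background was 112 called genes, or 1.1% of those tested, with 0.897% higher and 0.207% lower in CAF (0.71% and 0.281% without a filter on low counts). At an unadjusted p under 0.05 there were 2 of the 8, Rspo1 and Wnt4, against 15.3% of all genes tested. DESeq2 also called 0 of the 9, against 6.58% of its tested genes (2.81% higher and 3.76% lower). In the authors' deposited table none of the 9 had an adjusted p under 0.05, against 6.37% of its genes. The median log2 ratio of the 8 was -0.13, against 0.06 over all genes tested, with 3 positive and 5 negative values. The libraries of the groups did not overlap in 2 of the 8, against 19.9% of all genes tested (10.6% higher and 9.35% lower in CAF), so nothing is read from that count. An exact permutation test of 3 against 3 libraries cannot give a two-sided p below 0.1.

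**Figure D2:**
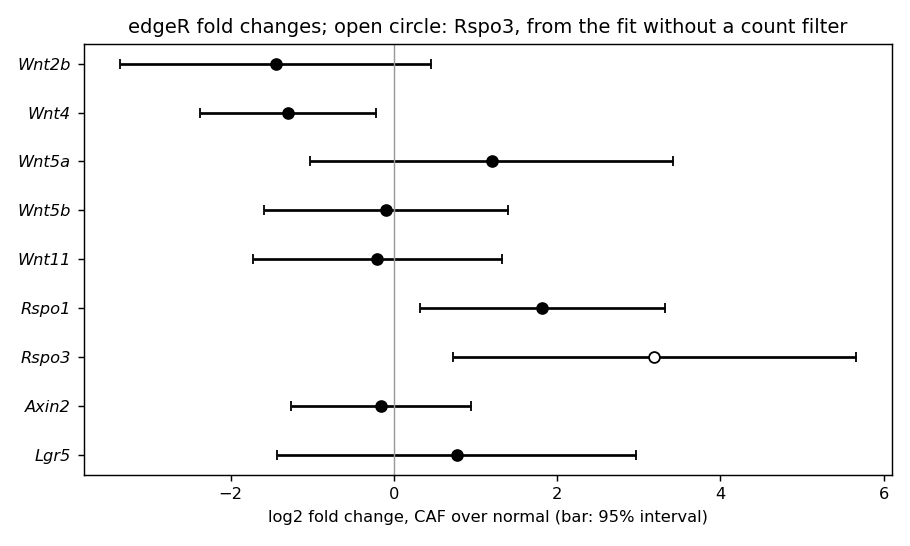
edgeR log2 ratios, CAF over normal (horizontal axis), with 95% intervals as bars. The intervals of Rspo1 and Wnt4 exclude 0 before adjustment for multiple testing; Rspo3 (open circle) comes from a fit without a count filter, and the other 6 intervals include 0.

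Among the ligands, Wnt2b is a beta-catenin-activating ligand of gut mesenchyme (mm10 chromosome 3, 104945272 to 104961921, minus strand). It was at 1.46, 5.66 and 7.44 CPM in CAF, against 9.39, 3.80 and 32.5 CPM in normal libraries. The groups overlapped, and normal library 3 stood far above the other 5 libraries. Its log2 ratio was -1.45 ± 0.82 (SE; adjusted p = 0.477), and -0.43 without normal library 3.

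Wnt4, a ligand best known from kidney tubule and ovary development (chromosome 4, 137277489 to 137299726, plus strand), was at 16.1, 9.52 and 16.4 CPM in the CAF libraries. In the normal libraries it was at 19.2, 39.3 and 45.0 CPM. All 3 CAF values lay below all 3 normal values, although normal library 1 was close to the CAF libraries (exact permutation test on CPM, two-sided p = 0.1, the smallest it can give). Mean levels were 14.0 ± 3.87 CPM across CAF libraries and 34.5 ± 13.6 CPM across normal ones (SD, n = 3 each). The log2 ratio of -1.30 ± 0.46 (SE) did not pass (adjusted p = 0.231), and its sign was the same in all 18 other settings, at -2.00 to -1.05. The authors' deposited table gives -1.33 with an adjusted p of 0.15.

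Wnt5a, a ligand of gut mesenchyme that acts mainly without beta-catenin (chromosome 14, 28504750 to 28527448, plus strand), was the most variable ligand among CAF libraries, at 5.85, 79.2 and 31.4 CPM. In the normal libraries it was at 6.12, 8.87 and 40.0 CPM. CAF library 1 was thus as low as the lowest normal library, and normal library 3 was higher than CAF library 3. The fit gave a log2 ratio of 1.2 ± 0.96 (SE; adjusted p = 0.638), and it was 0.18 without CAF library 2 and 2.45 without normal library 3. The 3′ ends of Wnt5a transcripts have a GC content of 33.3%, below the lower quartile of genes (40.8%; median 46.8%). With counts corrected for GC, the log2 ratio was 0.56 (adjusted p = 0.826).

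Wnt5b, the close relative of Wnt5a (chromosome 6, 119432531 to 119544347, minus strand), had 38.0, 28.4 and 27.3 CPM in CAF libraries and 13.5, 16.5 and 71.3 CPM in normal libraries. The CAF libraries were alike (31.3 ± 5.89 CPM), and the normal libraries lay on both sides of them (33.7 ± 32.6 CPM; SD, n = 3 each). The log2 ratio was -0.10 with a 95% interval of -1.60 to 1.40 (adjusted p = 0.97), which spans 0.331 to 2.65 times the normal level. It was 0.99 without normal library 3. Wnt11, another ligand that acts mainly without beta-catenin (chromosome 7, 98835112 to 98855195, plus strand), had 5.85, 4.97 and 7.71 CPM in CAF libraries and 5.71, 2.53 and 13.8 CPM in normal libraries. Its groups overlapped, with normal libraries 2 and 3 at the 2 extremes. The fit gave -0.20 ± 0.66 (SE; adjusted p = 0.929), or 0.41 without normal library 3.

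In CPM, all 5 ligands had their highest normal level in normal library 3, the normal library with the least gland RNA (4.19%) and the largest share of fibroblast identity counts (3.05%). Per count of fibroblast identity genes this held for 3 of the 5. The summed markers of telocytes and subepithelial fibroblasts (10 of 11 listed genes present) were also highest in that library, at 0.155% of counts, against 0.0175% and 0.0249% in normal libraries 1 and 2 and 0.025% to 0.0536% in the CAF libraries. Most of that sum came from F3, Bmp5 and Enho (703, 395 and 259 CPM in normal library 3). These and Edn3 were highest there, while Foxl1, Bmp7, Sox6, Nrg1, Npy and Bmp2 were highest in other libraries. The summed level of all 10 ranged from 217 to 475 CPM in CAF and from 232 to 1487 CPM in normal fibroblasts, and none of the 10 was at 0 in a whole group. The part of these differences in the ligand levels was not tested.

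Among the R-spondins, Rspo1 (chromosome 4, 124986430 to 125009099, plus strand), which in mammals also directs ovary development, was at 21.9, 48.7 and 86.3 CPM in the CAF libraries. In the normal libraries it was at 6.12, 21.5 and 20.0 CPM. Every CAF value lay above every normal value, by a narrow margin between CAF library 1 (15 counts) and normal library 2 (17 counts). Mean levels were 52.3 ± 32.3 CPM across CAF libraries and 15.9 ± 8.49 CPM across normal ones (SD, n = 3 each). Rspo1 averaged 3.53-fold higher in CAF in the fit, a log2 ratio of 1.82 ± 0.65 (SE), which did not pass (adjusted p = 0.231; exact permutation p = 0.1, two-sided). The sign was the same in all 18 other settings, at 0.82 to 2.31, and the authors' deposited table gives 1.75 with an adjusted p of 0.141.

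Rspo1 is also made by mesothelial cells, which can carry podoplanin. The other mesothelial markers (7 of 9 listed genes present) summed to 17.6 to 107 CPM in CAF and to 18.8 to 36.3 CPM in normal fibroblasts, and Upk3b was at 0 in all 3 normal libraries. They took 0.00186%, 0.00641% and 0.0123% of counts in CAF libraries 1, 2 and 3, and 0.00141%, 0.00277% and 0.00377% in normal libraries 1, 2 and 3. In CAF this is the order of Rspo1, but also that of the fibroblast identity share. Among normal libraries Rspo1 was instead highest in library 2. Wt1, the largest of the 7 in CAF library 3, was at 0, 16.6 and 60.2 CPM in CAF, against 0, 7.60 and 1.25 CPM in normal libraries. Of the 7, Msln and Upk3b were higher in every CAF library than in every normal one, and 5 overlapped. Over all genes tested, 10.6% were higher and 9.35% lower in CAF without overlap. For Upk3b, at 1.46, 1.66 and 0.541 CPM in CAF, 0 counts in normal libraries allow 1.22, 3.80 and 3.75 CPM. Its separation thus lies within the counting floor. Msln, a mesothelial surface protein gene, was at 5.85, 7.73 and 9.87 CPM in CAF, against 0, 1.27 and 1.25 CPM in normal libraries. Nkain4 was at 4.39, 11.9 and 14.5 CPM in CAF, against 13.9, 11.4 and 28.8 CPM in normal libraries. The part of such cells in the Rspo1 difference was not tested.

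Rspo3 (chromosome 10, 29452416 to 29535867, minus strand) had 0, 193 and 213 counts in CAF, against 6, 2 and 1 counts in normal libraries. These are 0, 26.6 and 28.8 CPM in CAF and 2.45, 2.53 and 1.25 CPM in normal libraries. CAF libraries 2 and 3 were thus alike and far above all 3 normal libraries, while CAF library 1 had no count. The 4.39 CPM that 0 counts allow in CAF library 1 lies below CAF libraries 2 and 3 and above all 3 normal values, so that this library differed from its group beyond the counting floor but could not be told from the normal libraries. Because too few libraries reached the count minimum, Rspo3 was not among the genes tested. A fit without that filter gave a log2 ratio of 3.19 ± 1.09 (SE; adjusted p = 0.194), with a background of 0.991% called. In the authors' deposited table it was 3.14 with an adjusted p of 0.104. With CAF library 1 left out, Rspo3 passed the filter at a log2 ratio of 3.65 (adjusted p = 0.0494, with 0.0494 to 0.601 over its 6 other settings). In that fit 49 of 11823 genes were called, all higher in CAF. The setting removes the CAF library in which Rspo3 had no count, so nothing is read from its adjusted p.

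Endothelial cells are another source of R-spondin 3. Endothelial markers (10 of 12 listed genes present) summed to 68.3 to 76.2 CPM in CAF and to 40.0 to 79.8 CPM in normal fibroblasts. Of these 10, 3 were higher in every CAF library than in every normal one (Cdh5, Cldn5 and Flt4), 1 was lower (Tie1) and 6 overlapped. The shares without overlap over all genes tested were 10.6% higher and 9.35% lower in CAF. Cldn5, a tight junction gene, was at 8.78, 9.66 and 6.63 CPM in CAF, against 0.408, 0 and 0 CPM in normal libraries. Pecam1, which encodes the CD31 used to remove endothelial cells in the sort, was at 0, 3.73 and 4.19 CPM in CAF, against 9.39, 8.87 and 0 CPM in normal libraries. The part of endothelial cells in the Rspo3 difference was not tested.

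Axin2 (chromosome 11, 108920349 to 108950783, plus strand) is the target gene through which beta-catenin limits its own pathway. It was at 13.2, 8.14 and 15.6 CPM in CAF libraries and at 16.3, 15.2 and 8.75 CPM in normal libraries. Both groups covered the same range, with mean levels of 12.3 ± 3.78 CPM across CAF libraries and 13.4 ± 4.08 CPM across normal ones (SD, n = 3 each). The log2 ratio was -0.16 ± 0.47 (SE; adjusted p = 0.923), and its 95% interval of -1.26 to 0.94 corresponds to 0.418 to 1.92 times the normal level. The sign depended on the setting, and the value turned to 0.12 without CAF library 2. With libraries scaled to fibroblast identity counts it was -1.21 (adjusted p = 0.535), or -0.38 relative to the shift of all genes on that scale. Among normal libraries Axin2 was higher in libraries 1 and 2, with 20.0% and 16.3% gland RNA, than in library 3, with 4.19%. The part of gland RNA in the Axin2 level was not tested. Differences within the 95% interval are not excluded by these libraries.

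The start-site windows of Axin2 and of Sp5, another direct beta-catenin target, are shown because both genes serve as readouts of the pathway. Each runs from 250 bases before to 50 bases after the annotated start, 5′ to 3′ on the gene's strand (RefSeq, GRCm38.p6, the mm10 assembly; Axin2 chr11:108920099-108920398, plus strand; Sp5 chr2:70474673-70474972, plus strand), and capitals mark CTTTGA, the core letters of TCF/LEF sites, searched on both strands (CTTTGA or its reverse complement TCAAAG).
Axin2: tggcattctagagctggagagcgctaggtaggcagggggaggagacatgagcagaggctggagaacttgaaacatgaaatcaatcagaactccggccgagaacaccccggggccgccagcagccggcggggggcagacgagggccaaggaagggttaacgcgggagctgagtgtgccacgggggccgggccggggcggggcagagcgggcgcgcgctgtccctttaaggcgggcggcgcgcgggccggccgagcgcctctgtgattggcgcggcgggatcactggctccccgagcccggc
Sp5: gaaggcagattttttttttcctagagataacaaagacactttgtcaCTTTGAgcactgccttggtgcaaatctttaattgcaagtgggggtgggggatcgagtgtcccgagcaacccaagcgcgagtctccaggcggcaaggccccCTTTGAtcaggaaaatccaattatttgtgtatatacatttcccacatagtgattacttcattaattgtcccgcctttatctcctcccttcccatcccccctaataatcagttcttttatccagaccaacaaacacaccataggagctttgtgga
The Axin2 window held 0 matches and the Sp5 window 2, which begin 204 and 104 bases before the start. Over all 32851 windows in the table, 16% held at least 1 match. Windows were given for 6 of the 9 members (9 windows), and 2 of these, of Wnt5b and Wnt11, held 1 match each. A match is a string of letters and does not show binding.

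Sp5, which was chosen after its values were seen, had 1, 5 and 5 counts in CAF libraries and 15, 11 and 3 counts in normal libraries, or 1.46, 0.69 and 0.676 CPM in CAF and 6.12, 13.9 and 3.75 CPM in normal libraries. All 3 CAF values lay below the normal ones. In CAF library 1, however, 3 counts correspond to 4.39 CPM, above the 3.75 CPM of normal library 3. On their counts these 2 libraries cannot be told apart. It was below the count filter, and without the filter its log2 ratio was -3.25 (adjusted p = 0.0903). In the authors' deposited table it was -3.37 with an adjusted p of 0.00982. Among normal libraries it was highest in library 2, with 16.3% gland RNA, then in library 1, with 20.0%, and lowest in library 3, with 4.19%. The part of gland RNA in the Sp5 difference was not tested.

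Lgr5 (chromosome 10, 115450311 to 115587780, minus strand) encodes an R-spondin receptor, is a target of the pathway and marks stem cells and some chief cells of stomach glands. It had 1, 65 and 56 counts in CAF, against 8, 7 and 0 counts in normal libraries. These are 1.46, 8.97 and 7.57 CPM in CAF and 3.26, 8.87 and 0 CPM in normal libraries, where 0 counts in normal library 3 allow up to 3.75 CPM. The groups overlapped over nearly their whole range. For Lgr5 the log2 ratio was 0.77 ± 0.95 (SE; adjusted p = 0.776), with a 95% interval of -1.43 to 2.97. It was -0.62 when libraries were scaled to fibroblast identity counts, or 0.21 relative to the shift of all genes on that scale. Chief cell genes took 0.128% to 0.409% of counts in CAF libraries and 14.5%, 10.8% and 1.3% in normal libraries 1, 2 and 3, and all 6 measured chief cell genes had counts in both groups. The part of gland RNA in the Lgr5 level was not tested.

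Because the share of fibroblast RNA varied, member counts were also set against the summed fibroblast identity genes. Per 10000 such counts, Wnt4 was at 10.3, 2.58 and 3.73 in CAF libraries and at 19.8, 25.5 and 15.4 in normal libraries. The groups again did not overlap. Wnt2b, which overlapped in CPM, was also lower in every CAF library on this scale (0.933, 1.53 and 1.70 in CAF, against 9.67, 2.46 and 11.1 in normal). For Wnt2b, CAF library 1 held 1 count and normal library 2 held 3 counts, within the counting floor. The share of all genes without overlap was not computed on this scale, so nothing is read from these separations. Rspo1 was at 14.0, 13.2 and 19.7 in CAF and at 6.30, 14.0 and 6.83 in normal libraries, so that the 2 groups overlapped. In a fit on this scale the median of all genes shifted to -0.83 log2 units, and 540 of 10148 genes were called, 102 higher and 438 lower in CAF. The log2 ratios were -2.40 for Wnt2b, -2.00 for Wnt4 and 0.82 for Rspo1, or -1.57, -1.17 and 1.64 relative to that shift, and 0 members were called.

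**Figure D3:**
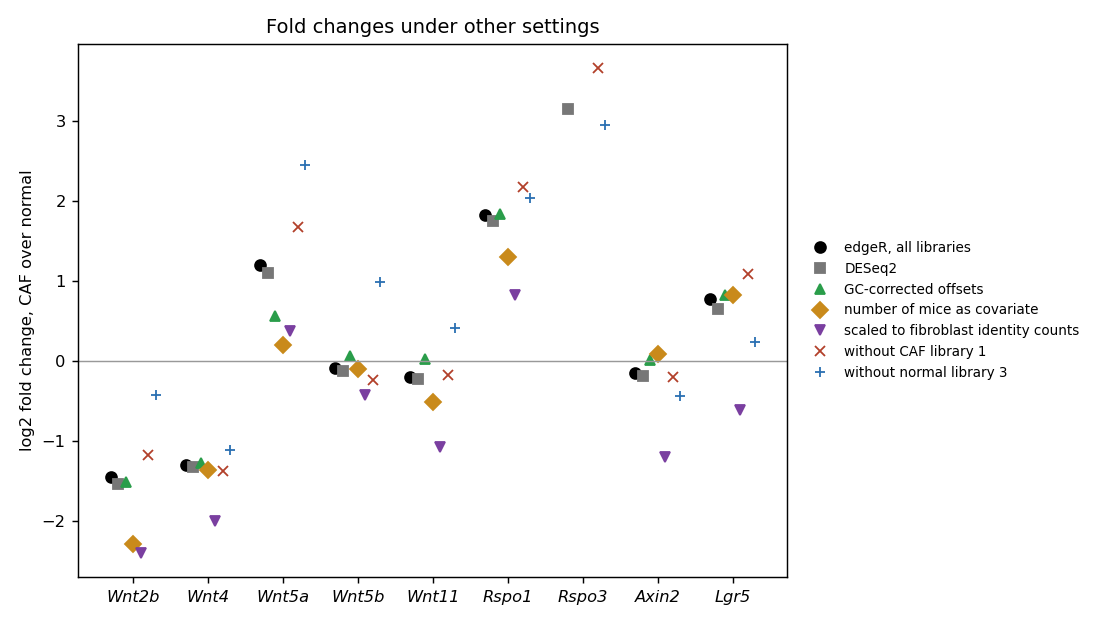
Log2 fold changes of the 9 genes, CAF over normal (vertical axis), in the edgeR fit of all libraries and in 6 other settings (symbols). Rspo1, Rspo3, Wnt4, Wnt2b and Wnt5a keep their sign in the settings shown, and Wnt5b, Wnt11, Axin2 and Lgr5 lie on both sides of 0; Rspo3 has values where it passed the filter or none was used.

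The rest of the pathway was described from lists of 81 further genes in the table, of which 61 were tested and 2 called, both secreted inhibitors that rose in CAF, against 1.1% called over all genes tested. Wif1, which binds Wnt ligands, was at 152, 284 and 179 CPM in CAF and at 3.26, 8.87 and 5.00 CPM in normal libraries. Sfrp5, a secreted Frizzled-related protein that also binds Wnt ligands, was at 151, 46.2 and 45.9 CPM in CAF and at 2.86, 5.07 and 2.50 CPM in normal libraries. Both had no overlap between groups and log2 ratios of 5.27 ± 0.51 and 4.55 ± 0.68 (SE; adjusted p = 0.0124 and 0.0357). Over all genes tested, 10.6% were higher in CAF without overlap. The Sfrp5 log2 ratio was 3.78 without CAF library 1, and the call of Wif1 was lost without CAF library 2 or normal library 1 (adjusted p = 0.0561 and 0.141). That of Sfrp5 was lost without CAF library 2 or 3 or normal library 1 or 2 (adjusted p = 0.0763, 0.0553, 0.213 and 0.122) and with limma-voom (0.0895). Against normal library 3 alone, where 0 of 12572 genes were called, the log2 ratios were 5.42 for Wif1 and 4.99 for Sfrp5 (adjusted p = 0.259 and 0.377). Of 10 tested inhibitors 2 rose and 0 fell, against 0.897% higher and 0.207% lower over all genes tested, with a median log2 ratio of 1.54, against 0.06 over all genes tested.

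**Figure D4:**
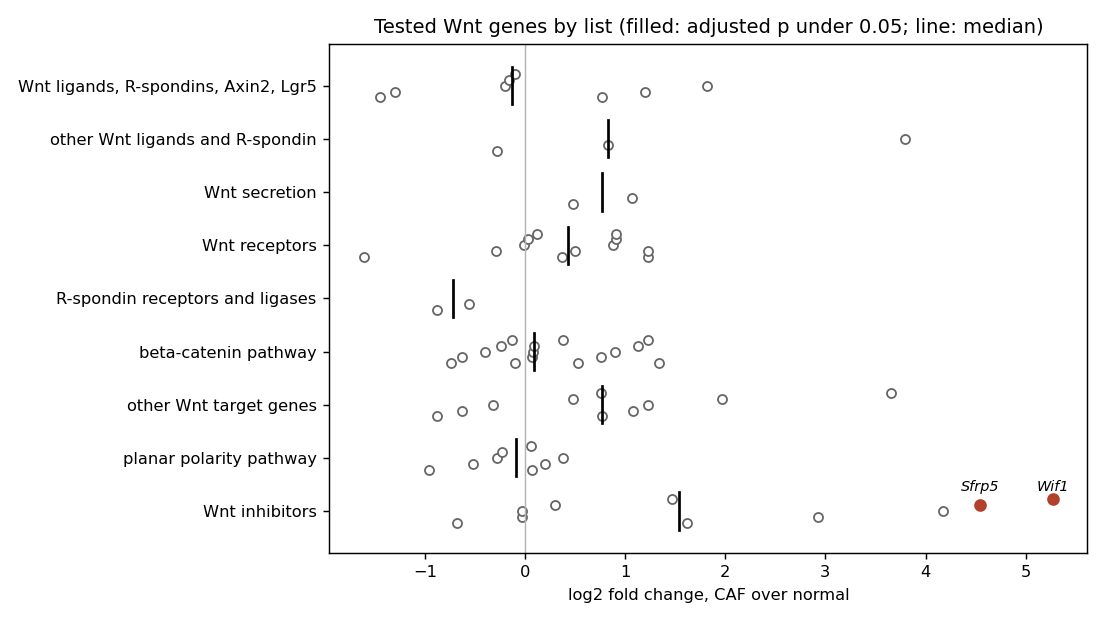
Log2 fold changes, CAF over normal (horizontal axis), of all tested genes of each Wnt list, 1 circle per gene; filled circles are called by edgeR and vertical lines are list medians. Wif1 and Sfrp5 are the called genes, and the 8 tested ligands, R-spondins and targets scatter around a median of -0.13.

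None of the other lists had a called gene. Of the other ligands and R-spondin, 3 of 15 were tested, with a median of 0.83. Wnt7b, an epithelial ligand in many organs, was at 70.2, 16.1 and 11.5 CPM in CAF and at 2.45, 3.80 and 0 CPM in normal libraries (log2 ratio 3.80 ± 1.02 SE, adjusted p = 0.117). Its CAF values all lay above its normal values, and CAF library 1 was the highest. It passed with DESeq2 (adjusted p = 0.00453), with the number of mice as covariate (0.035) and on the fibroblast scale (0.0233), with a range of 0.00453 to 0.464 over its 18 other settings. General epithelial markers (11 of 11 present) summed to 1402 to 3144 CPM in CAF and to 1169 to 5745 CPM in normal libraries, with none at 0 in a whole group. They took 0.333%, 0.158% and 0.163% of counts in CAF libraries 1, 2 and 3, and 0.432%, 0.258% and 0.122% in normal libraries 1, 2 and 3. Of these 11, 3 were higher in every CAF library than in every normal one (Cldn3, Cldn4 and Cldn7), 2 were lower (Krt19 and Cldn18) and 6 overlapped. Over all genes tested the shares without overlap were 10.6% higher and 9.35% lower in CAF. Cldn3, a tight junction gene, was at 116, 74.9 and 74.5 CPM in CAF, against 5.71, 2.53 and 3.75 CPM in normal libraries. Krt19 was at 155, 155 and 151 CPM in CAF, against 986, 434 and 464 CPM in normal libraries. Cldn18 was at 16.1, 26.6 and 29.1 CPM in CAF, against 522, 384 and 58.8 CPM in normal libraries. Epcam, whose protein was used to remove cells in the sort, overlapped, at 233, 127 and 114 CPM in CAF, against 150, 78.5 and 13.8 CPM in normal libraries. The part of epithelial RNA in the Wnt7b and Sfrp5 differences was not tested. Wnt9a had a log2 ratio of 0.83 (adjusted p = 0.384). Of the secretion factors, Wls, which carries Wnt ligands to the cell surface, and Porcn, which adds their lipid, had log2 ratios of 1.07 and 0.47 (adjusted p = 0.545 and 0.61).

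The 12 tested receptors had a median of 0.43. Ror2, a receptor for Wnt5a, was at 52.7, 35.7 and 36 CPM in CAF and at 13.1, 22.8 and 17.5 CPM in normal libraries, without overlap and without passing (log2 ratio 1.23 ± 0.38 SE, adjusted p = 0.171). Over all genes tested, 10.6% were higher in CAF without overlap. Per fibroblast identity count the Ror2 groups overlapped, with a log2 ratio of 0.55 on that scale (adjusted p = 0.744). Fzd2, a Frizzled receptor, had a log2 ratio of 1.22 (adjusted p = 0.313). Of the R-spondin receptors and ligases, Znrf3 and Lgr4 were tested, at -0.88 and -0.56 (adjusted p = 0.595 and 0.872). The 16 tested genes of the beta-catenin pathway had a median of 0.09, with the scaffold Dvl1 at -0.74 and beta-catenin itself, Ctnnb1, at 1.34 (adjusted p = 0.321 and 0.406). The 8 genes of planar polarity had a median of -0.09, with Scrib at -0.96 and Prickle3 at -0.52 (adjusted p = 0.274 and 0.641).

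Of the other target genes 10 were tested, with a median of 0.77, and the 2 of smallest p did not pass. Ccn4, a secreted matricellular protein, was at 8.78, 28.2 and 21.1 CPM in CAF and at 1.22, 2.53 and 1.25 CPM in normal libraries (log2 ratio 3.66 ± 0.67 SE, adjusted p = 0.0557). Cd44, the hyaluronan receptor, was at 76.1, 82.9 and 81.8 CPM in CAF and at 38.8, 43.1 and 32.5 CPM in normal libraries (1.08 ± 0.28 SE, adjusted p = 0.109). The groups did not overlap in either gene, and 10.6% of all genes tested were higher in CAF without overlap. Per fibroblast identity count Cd44 overlapped and Ccn4 did not. On that scale the log2 ratios were 0.16 for Cd44 and 2.51 for Ccn4 (adjusted p = 0.923 and 0.183). With DESeq2, 10 of the 81 genes were called, 7 higher (Wif1, Sfrp5, Ccn4, Wnt7b, Frzb, Dkk2 and Cd44) and 3 lower in CAF (Wnt10a, Sp5 and Rnf43), genes chosen here after their values were seen. DESeq2 called 6.58% of all its tested genes, 2.81% higher and 3.76% lower.

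Rspo1 had the highest mean CPM over the 6 libraries among the members, and the 3 genes with the most similar profile were sought among 9333 tested genes. These were Dse, Peg3 and Medag, whose centred log2 profiles differed from that of Rspo1 by 0.18, 0.20 and 0.21 log2 units on average over the 6 libraries. Dse was at 7.32, 24.8 and 36.4 CPM in CAF, against 2.04, 8.87 and 11.3 CPM in normal libraries. As in Rspo1, CAF library 3 was highest and normal library 1 lowest. Genes chosen for a similar profile tend to share this, so nothing is read from it. None of the 3 was called (adjusted p = 0.318, 0.245 and 0.287).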

How the data were processed

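RNA of sorted stomach fibroblasts was counted by MARS-seq in 6 libraries, 3 per group. Per the submitters' processing notes, the tools were cutadapt, STAR, HTSeq and DESeq2 (no version given) on the mm10 build. How annotation, strand and molecular identifiers were handled is not given in the sources used here. Raw counts per gene symbol, as the authors deposited them, were tested. The deposited table also holds a normalized signal (each count over a size factor of its library, as the values show), regularized log2 values per the file headers, and the authors' log2 fold change, p-value and adjusted p-value. The regularized values were not used.

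Genes were kept by filterByExpr, scaled with TMM factors and tested with edgeR 4.0.16 in R 4.3.3 (glmQLFit, glmQLFTest, group term, Benjamini-Hochberg, threshold 0.05). Approximate standard errors and 95% intervals were worked back from F. DESeq2 1.42.0 and limma-voom (limma 3.58.1) were alternatives. The GC content of the last 500 bases of GENCODE transcripts served a correction by lowess. The edgeR test was also run on simulated counts, with a common spread taken from these data. It called 2 of 46 genes changed 2-fold, 22 of 50 changed 4-fold and 3 of 9680 unchanged genes. Each library held RNA from 1 mouse or a pool of 2. Floors of 3 counts cover counting error only.

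The members and lists were chosen with earlier results of these data known. All members are named; of each other list, up to 4 called genes or the 2 of smallest p; and 3 genes most like the member of highest mean CPM, by mean absolute difference of centred log2(CPM + 1), among genes with a mean of at least 20 counts. Antisense genes share exon sequence positions with 4 of the 9 members (Wnt5a, Wnt11, Rspo3 and Axin2), and without a stated strand setting their reads cannot be told apart.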

Additional observations from a re-analysis of the deposited data

How the results depend on the processing

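Leaving out 1 library moved the count of called genes between 0 (without normal library 1, with 793 genes at an unadjusted p under 0.05) and 1193 (without normal library 3), against 112 (91 higher and 21 lower). It was 935 with DESeq2 (400 higher and 535 lower), 65 with limma-voom, 540 on the fibroblast scale (102 higher and 438 lower), 169 with GC-corrected offsets, chosen after seeing the data, and 0 against normal library 3 alone, where 1271 genes had an unadjusted p under 0.05. The count of called members was 0 in all settings except without CAF library 1, where Rspo3, with its 0 set aside, made it 1 (range 0 to 1). The other pathway genes, 2 called in the fit of all libraries, numbered 10 with DESeq2, 1 with limma-voom, 4 on the fibroblast scale, 0 against normal library 3 alone and 0 to 11 with 1 library left out (11 without normal library 3). In 125 of 140 other values of members neither sign nor call changed. The log2 fold change turned sign for Wnt5b (0.45 with limma-voom, 0.058 with GC-corrected offsets, 0.32 with the GC side of a library as a block, 0.99 without normal library 3) and Wnt11 (0.0089, 0.019, 0.24 and 0.41 in the same settings). The GC block, like the GC-corrected offsets, was chosen after seeing the data. With 1 library left out, Wnt5b ranged from -0.52 to 0.99, Wnt11 from -0.58 to 0.41, Axin2 from -0.44 to 0.12 and Lgr4 from -1.16 to 1.67. The sign also turned for Axin2 (0.082 with the number of mice as covariate, 0.53 against normal library 3, 0.0039 with GC-corrected offsets, 0.12 without CAF library 2) and Lgr5 (-0.62 on the fibroblast scale, -0.21 with the GC block). Among other genes it turned for Ctnnb1 and Porcn on the fibroblast scale (-0.031 and -0.49), for Znrf3 against normal library 3 (0.48), and for Lgr4 (0.82 with limma-voom, 0.39 with the mice covariate, 7.42 against normal library 3, 1.67 without normal library 2). On the fibroblast scale the median of all genes was -0.83, and Lgr5, Ctnnb1 and Porcn lay above it. The causes of these changes were not tested. No paired analysis was possible because the labels give the groups no shared replicate numbers. With 644522 to 903176 counts in 3 of the libraries, 3 counts correspond to 3.75 to 4.39 CPM, and at most 3 counts were found there for Wnt2b in CAF library 1 and normal library 2, for Wnt11 in normal library 2, for Lgr5 in CAF library 1 and normal library 3, and for Rspo3 in all 3.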
